A study of Mus musculus with 4 samples.

Results

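The replication-dependent histone cluster genes were taken as every gene whose symbol began with Hist1h, Hist2h, Hist3h or Hist4h, which gave 67 of the 31053 genes counted. They comprised 6 genes for the linker histone H1, 18 for H2A, 18 for H2B, 12 for H3 and 13 for H4. In the GENCODE annotation of the mm10 build (GRCm38), 54 lay on chromosome 13 within chr13:21715763-23934851, 10 on chromosome 3 within chr3:96219865-96270132, 2 on chromosome 11 and 1 on chromosome 6. The data were single-cell RNA-seq libraries (10x Genomics 3' kit, v3.1 chemistry) of TOM+ mouse duodenal crypt cells, 2 labelled WT and 2 labelled APC-KO, in which each unique molecular identifier (UMI) counts 1 captured RNA molecule. WT mice were Atoh1CreER-T2;R26RTom, and the APC-KO samples carry the genotype label Atoh1Cre;Apcfl/fl;R26RTom, while the series text names the tamoxifen-activated driver, CreER-T2, for both. The recombinase was driven from Atoh1, a transcription factor gene of the secretory lineage, and the Tom reporter marked the cells sorted. Mice of both groups received 2 intraperitoneal tamoxifen doses (1 mg/ml) 24 h apart, and their crypt cells were collected after a further 12 h. Dead cells, positive for DAPI, were removed in the sort. The labels name no animal, sex, age or batch, so p-values measured only the spread between these libraries, which may be technical.

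Replication-dependent histone genes encode the proteins that package newly copied DNA, and in dividing cells they are transcribed mostly in S phase. Their mRNAs typically end in a conserved stem-loop bound by the protein Slbp in place of a poly(A) tail and are degraded when replication ends, although several of them also make polyadenylated transcripts, including in differentiated cells. In the intestinal crypt, stem cells (ISC) and early secretory progenitors (SEC-PRO) divide, while goblet, Paneth, enteroendocrine and tuft cells have left the cell cycle. The kit primes on poly(A) stretches, so the counts describe those histone transcripts that carry one.

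The stem-loop letters shared by most of these genes are shown first, because the genes fell into groups by how far the annotated transcript continued past them. The pattern searched on the transcript strand was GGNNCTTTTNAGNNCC, and it was found in 43 of the 67 members and in 89 of 55450 genes with a transcript (0.161%). For each member only the longest annotated transcript was read, protein-coding where there was one, and for all genes any transcript. In the windows below the capitals mark the stem-loop letters, written as DNA from 5′ to 3′.
Hist1h3c: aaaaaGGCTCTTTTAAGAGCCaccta
Hist1h2ap: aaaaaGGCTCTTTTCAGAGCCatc
Hist1h2ae: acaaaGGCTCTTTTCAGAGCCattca
Hist1h4d: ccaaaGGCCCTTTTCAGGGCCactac
Hist1h1c: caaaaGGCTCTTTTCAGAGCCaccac
Hist3h2a: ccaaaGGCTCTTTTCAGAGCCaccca
Hist2h3c1: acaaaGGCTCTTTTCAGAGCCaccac
Hist1h3c (chr13:23744973-23745602, minus strand) and Hist1h2ap (chr13:21833026-21833507, minus strand) ended 74 and 3 bases after these letters. Hist1h2ae (chr13:23570517-23571220, minus strand) went on for 151 bases, Hist1h4d (chr13:23581598-23582735, plus strand) for 770 and Hist1h1c (chr13:23738808-23740367, plus strand) for 840. Hist3h2a (chr11:58954685-58956830, plus strand) continued for 1643 bases. In all, 21 members ended within 100 bases of the letters and 22 went on for more. Of the 24 without the letters, 13 had annotated transcripts of at most 420 bases. Hist1h1b (chr13:21779883-21780625, minus strand) was among the members without the letters. An annotated transcript that stops short of its end would also lack them, so missing letters do not show that a gene has no stem-loop. Annotated transcripts had 1 exon in 62 members and more than 1 in 5.

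The 120 bases upstream of the RefSeq start (GRCm38.p6) are shown for 5 members, 1 for each of H1, H2B and H4 and a pair of H2A genes that differed in where they were high. The capitals mark ATTTGCAT, the octamer of H2A and H2B promoters, CCAAT and TATAAA, each searched on both strands, so that ATTGG and ATGCAAAT are reverse complements.
Hist1h1b: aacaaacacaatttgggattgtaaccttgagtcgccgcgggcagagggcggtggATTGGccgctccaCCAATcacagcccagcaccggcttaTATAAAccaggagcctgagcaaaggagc
Hist1h2ae: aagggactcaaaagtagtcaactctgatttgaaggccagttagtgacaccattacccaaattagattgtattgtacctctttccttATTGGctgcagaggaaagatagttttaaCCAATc
Hist1h2bm: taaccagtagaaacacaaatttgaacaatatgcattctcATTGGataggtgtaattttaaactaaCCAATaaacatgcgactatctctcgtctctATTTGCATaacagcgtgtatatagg
Hist1h4d: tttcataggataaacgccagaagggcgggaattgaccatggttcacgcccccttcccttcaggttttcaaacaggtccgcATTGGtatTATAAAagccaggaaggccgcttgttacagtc
Hist3h2a: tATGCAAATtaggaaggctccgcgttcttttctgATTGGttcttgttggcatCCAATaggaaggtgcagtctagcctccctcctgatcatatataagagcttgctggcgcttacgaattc
They lie at chr13:21780626-21780745 (minus), chr13:23571221-23571340 (minus), chr13:21721924-21722043 (plus), chr13:23581448-23581567 (plus) and chr11:58954565-58954684 (plus), in that order. Over windows from 250 bases before to 50 after the start, 61 of the 67 members matched a RefSeq entry. ATTTGCAT was in 13 of these 61 (21.3%), 7 of 17 H2A and 6 of 16 H2B genes and no H1, H3 or H4 gene, against 1.74% of 32851 promoters of the same length. CCAAT was in 52 (85.2%, against 37.4%) but in only 3 of 12 H4 genes, and TATAAA was in 35 (57.4%, against 13.6%). Divergent neighbours can share part of a window, so these counts are not over independent sequences. A match in these letters is a description of sequence and not of factor binding.

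Of the 67 members, 63 had at least 1 UMI in the 15234 cells of the deposited cell tables, 51 had at least 100, and Hist1h2aa, Hist1h2ba, Hist1h2bq and Hist2h2aa2 had none. Every 50-base stretch of the transcripts of Hist2h2aa2 and Hist1h2bq also occurred in another gene. The members held 85919 UMIs, 0.113% of 75975541, and the 10 highest held 72.5% of them. Hist1h1e held 13976 (16.3%), Hist1h1b 8720 (10.1%) and Hist1h2bc 8154 (9.49%), followed by Hist1h2ae with 6575, Hist1h2ap with 5995 and Hist1h4d with 5424. By histone, H1 genes took 35.3% of the member UMIs, H2A 24.9%, H2B 16.4%, H3 9.41% and H4 13.9%. For 32 members, over 50% of the transcript's 50-base stretches also occurred in another gene, and how reads matching several genes were counted is not given in the sources used here. Their counts are therefore uncertain between copies. The last 200 bases were wholly shared for Hist1h1e, which overlaps Hist1h2be and Gm11398 on the same strand, for Hist1h2ap and for Hist2h2aa1. They were also wholly shared for Hist1h2br, Hist1h4m, Hist2h3c1, Hist1h3e and Hist1h3f.

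The libraries differed in size. The WT libraries contributed 4814 and 3821 cells, the APC-KO libraries 356 and 6243, holding 24677647, 21003179, 3009636 and 27285079 UMIs in that order. A cell had a median of 4842, 5354, 8370 and 3973 UMIs. The first APC-KO library stood apart, since its kept cells held 5.15% of the UMIs in its matrix, against 37.6% to 50.3% elsewhere, and it had 29 progenitor cells against 680 to 2576. Any pair of libraries shared 1 to 8 cell barcodes. Of 34 type markers, 28 were highest in their own type. A list of 20 immune and stromal genes summed to 0 to 6.20 CPM (UMIs per 1000000 UMIs) in progenitors and 8.64 to 19.6 CPM in mature cells. The CPM of Apc itself was 87.2 and 77.9 in WT libraries, and 88.1 in each APC-KO library. The labels do not give the deleted stretch, and the tags come from transcript ends, so this level does not check the genotype.

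The histone members were highest in the 2 dividing secretory and stem cell types. Ordered by the median of the 4 libraries, the summed level ran from SEC-PRO and ISC at the top, through the enteroendocrine types EC and NON-EC, to goblet and Paneth cells at the bottom. Here and below, values are in the order WT replicate 1, WT replicate 2, APC-KO replicate 1, APC-KO replicate 2. SEC-PRO cells held 2746, 1567, 10731 and 3754 CPM, the third value from 5 cells. ISC held 2293, 1132, 4908 and 3091 CPM, the third value from 13 cells. SEC-PRO was above ISC, ISC above EC, and EC above NON-EC in 4 of 4 libraries. EC stood at 1095, 1001, 1383 and 938 CPM, and NON-EC at 950, 750, 914 and 851. The tuft, early enteroendocrine (EEC-PRE) and NON-EC values overlapped from library to library, so their order does not hold beyond the spread. ENTERO-PRO cells, named as enterocyte progenitors and grouped here with the progenitors, held only 631, 610, 759 and 637 CPM, below EEC-PRE in 4 of 4 libraries. GOBLET cells held 449, 483, 426 and 424 CPM. PANETH cells held 173 and 169 CPM in WT but 890 and 484 CPM in APC-KO. Cell type names were given by the authors from expression of the same cells, so they are not independent of these counts. In summed counts, fewer expressing cells and less RNA per cell cannot be told apart.

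**Figure D1:**
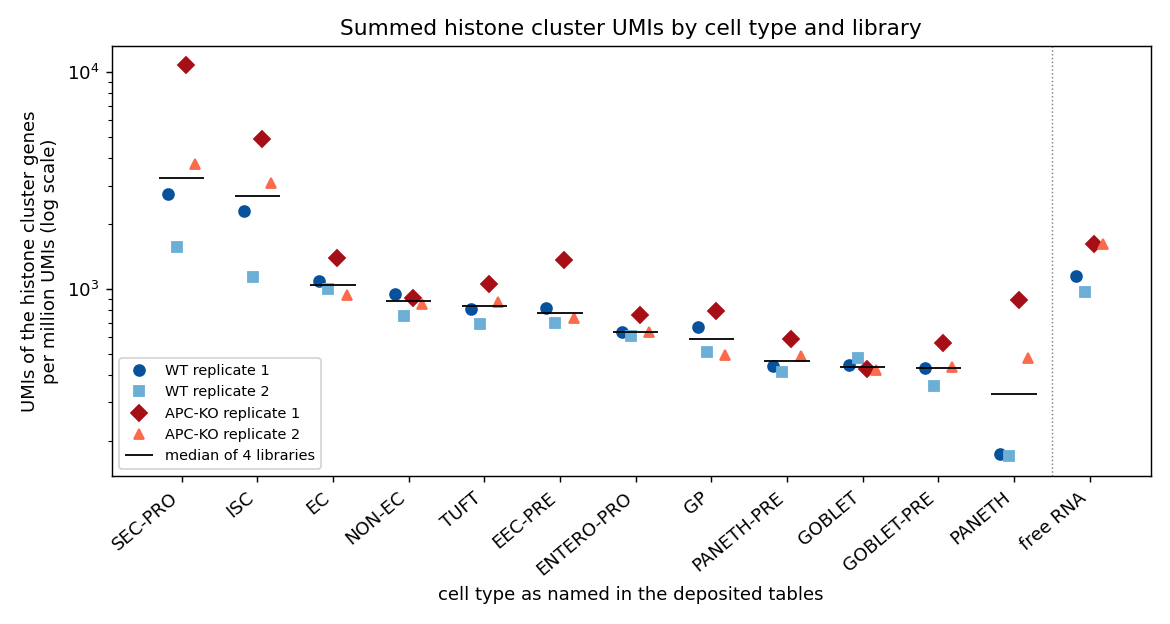
Summed UMIs of the 67 histone cluster genes per 1000000 UMIs (log axis) in 12 cell types, 1 point per library, with the median of the 4 libraries as a black line; the last column is RNA outside cells. SEC-PRO and ISC lie above every other type in each library, and APC-KO replicate 1 is the highest of the 4 libraries in both.

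Cells rich in member UMIs were found mainly among ISC and SEC-PRO cells after all cells were brought to one depth. After each cell was thinned to 2000 UMIs, which left out 161, 50, 10 and 292 shallower cells, at least 10 member UMIs were found in 16.6%, 5.43%, 40% and 22.7% of ISC and in 19.4%, 9.47%, 25.0% and 30.5% of SEC-PRO cells. Without thinning the shares were 29.9%, 18.4%, 53.8% and 34.1% of ISC and 36.3%, 22.2%, 40% and 44.8% of SEC-PRO cells. In the other types the thinned share was at most 2.33%, except for PANETH cells of APC-KO replicate 1, at 31.2% of 16 cells. Of those 16 cells, 7 fell in the S class and 3 in the G2M class defined below from other genes, against 7 and 9 of the 200 PANETH cells of WT replicate 2. Having at least 1 member UMI did little to separate ISC from pooled mature cells. The thinned shares were 78.0%, 63.3%, 70.0% and 74.9% in ISC and 73.6%, 62.0%, 79.8% and 61.3% in mature cells. Single mature types lay on both sides of ISC, with 86.7%, 80.2%, 86.7% and 75.5% in EC and 65.0%, 59.3%, 66.7% and 46.7% in GOBLET. Barcodes with 1 to 50 UMIs, which carry RNA from outside cells, held 1153, 968, 1612 and 1614 member CPM. That is above the level of pooled mature cells in every library, so single member UMIs in mature cells cannot be read as expression.

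**Figure D2:**
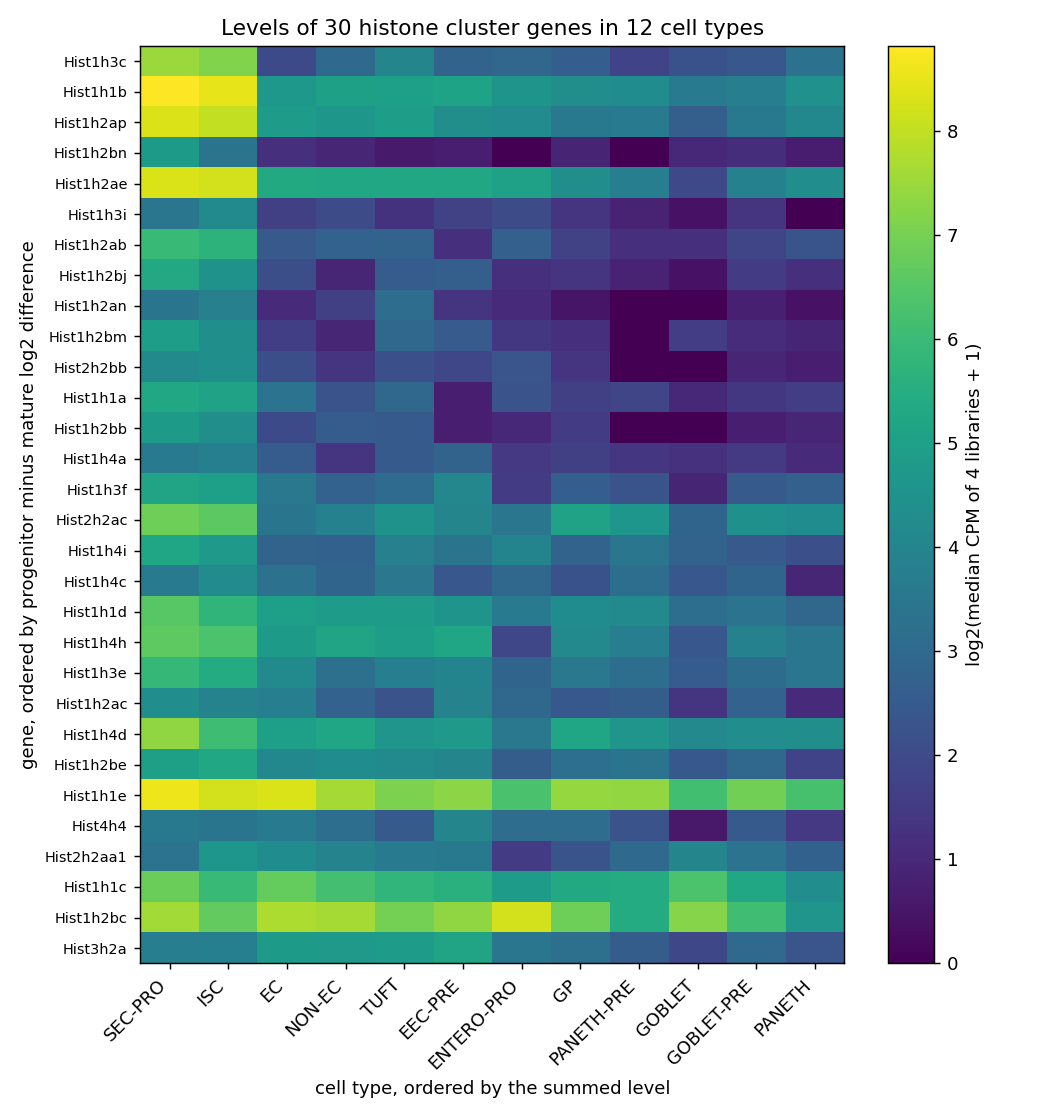
Median CPM over the 4 libraries, as log2(CPM + 1), for the 30 named members (rows, ordered by the progenitor minus mature difference) in 12 cell types (columns, ordered by the summed level). Members at the top are bright in the SEC-PRO and ISC columns alone, while Hist1h2bc, Hist1h1c, Hist1h1e and Hist3h2a are spread over several types.

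Progenitor cells (ISC, SEC-PRO and ENTERO-PRO) were compared with mature cells (GOBLET, PANETH, EC, NON-EC and TUFT) to ask which histone genes follow dividing cells and which do not. Most members were higher in progenitors, led by Hist1h3c, Hist1h1b, Hist1h2ap and Hist1h2ae. The summed level was 2309, 1309, 4066 and 2817 CPM in progenitors and 676, 507, 955 and 658 CPM in mature cells, a ratio of 3.63 ± 0.81 (SD, n = 4 libraries). Per gene, edgeR's quasi-likelihood test with library as a block and Benjamini-Hochberg adjustment over 12225 genes called 48 of the 55 members tested higher in progenitors, where 30.7% of all genes were called higher. It called 3 lower, where 33.5% of all genes were. The median log2 difference was 2.08 over the members and -0.04 over all genes. Progenitor CPM exceeded mature CPM in 4 of 4 libraries for 34 of the 55 members, against 32.7% of all genes, and in 51, 49, 37 and 51 members in the single libraries. Without APC-KO replicate 2 the members called higher fell from 48 to 27, all of them among the 48.

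Among the H1 genes, which encode linker histones that bind DNA between nucleosomes, 4 of the 5 tested were higher in progenitors. Hist1h1b stood at 359, 255, 359 and 323 CPM in progenitors and at 20.1, 10.0, 29.4 and 35.4 CPM in mature cells. The ranges did not overlap, and the log2 difference was 3.64 ± 0.13 (SE; edgeR, Benjamini-Hochberg adjusted p = 4.37e-60). In SEC-PRO cells alone Hist1h1b reached 457, 321, 700 and 442 CPM, against 18.5, 3.54, 0 and 20.4 CPM in GOBLET cells. Hist1h1a was lower in level but of the same kind, with 33.8, 24.4, 17.4 and 40.7 CPM in progenitors and 4.75, 2.82, 10.2 and 5.77 CPM in mature cells (log2 2.60 ± 0.18). Hist1h1d differed by 1.75 ± 0.14. Hist1h1e, the member with the most UMIs, was at 328, 229, 359 and 285 CPM in progenitors and at 178, 133, 230 and 105 CPM in mature cells. It was also high in EC, at 328, 313, 410 and 161 CPM, and its progenitor to mature difference was 0.79 ± 0.12 (edgeR, Benjamini-Hochberg adjusted p = 1.78e-09). Hist1h1c did not pass the test, with 88.4, 61.6, 122 and 74.1 CPM in progenitors and 66, 63.6, 80.6 and 50.4 CPM in mature cells (0.20 ± 0.12, adjusted p = 0.133). Its highest median among mature types was in EC, at 114, 95.1, 154 and 85.4 CPM.

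H2A and H2B pair to form the outer parts of the nucleosome core, and 13 of 14 H2A and 13 of 15 H2B genes tested were higher in progenitors, with 1 lower in each group. Hist1h2ap, the H2A gene ending 3 bases after its stem-loop, stood at 262, 56.2, 1199 and 233 CPM in progenitors and at 15, 3, 105 and 27.7 CPM in mature cells. Progenitors were higher within every library (log2 3.53 ± 0.13), but the 2 groups' ranges overlapped, because APC-KO replicate 1 was the highest in both. That library also held 725 CPM of Hist1h2ap outside cells, against 130, 46.7 and 111 CPM in the others. With RNA of that profile subtracted at an assumed 5% of each sum, the difference was 4.11. Hist1h2ae was at 254, 74.5, 556 and 274 CPM in progenitors and at 19.5, 5.29, 61.4 and 37.3 CPM in mature cells, without overlap (3.18 ± 0.13). Hist1h2ab (2.97), Hist1h2an (2.89, but -1.30 without APC-KO replicate 2) and Hist2h2ac (2.06) were also higher. Hist2h2aa1 was only just past the threshold (0.41 ± 0.19; edgeR, Benjamini-Hochberg adjusted p = 0.0453), and without APC-KO replicate 2 it was lower in progenitors (-1.0).

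The H2B genes Hist1h2bn (3.29 ± 0.28), Hist1h2bj (2.90 ± 0.23) and Hist1h2bm (2.86 ± 0.25) were among those higher in progenitors. Hist1h2bm was at 15.2, 5.62, 40.5 and 29.6 CPM there and at 2.01, 0.881, 3.84 and 3.27 CPM in mature cells. Hist1h2bc, the H2B gene with the most UMIs, was different. Its level was 166, 216, 214 and 78.7 CPM in progenitors and 150, 160, 127 and 60.0 CPM in mature cells, and it did not pass the test (0.19 ± 0.11; edgeR, Benjamini-Hochberg adjusted p = 0.133). The highest median was in ENTERO-PRO, with 274, 337, 323 and 129 CPM, followed by EC with 222, 274, 205 and 99.1 CPM, while PANETH cells held 16.9, 25.1, 27.6 and 21.1 CPM. For this gene (chr13:23684199-23692908, plus strand) the longest annotated transcript had 2 exons and no stem-loop letters. Any other transcripts of the gene were not read for the letters.

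H3 and H4 form the centre of the nucleosome core, and 9 of 11 H3 and 9 of 10 H4 genes tested were higher in progenitors. Hist1h3c had the highest log2 difference of the members tested, 3.81 ± 0.16 (edgeR, Benjamini-Hochberg adjusted p = 4.51e-53), with 94.2, 35.7, 145 and 178 CPM in progenitors and 4.38, 1.06, 11.5 and 18.1 CPM in mature cells. The ranges did not overlap. Hist1h3i (3.06 ± 0.26), Hist1h3f (2.08 ± 0.20) and Hist1h3e (1.5 ± 0.15) were also higher. Hist1h4d, the H4 gene with the most UMIs, was at 78.0, 29.6, 57.9 and 248 CPM in progenitors and at 25.6, 11.6, 23.0 and 69.3 CPM in mature cells, higher within each library (1.49 ± 0.13) but with overlapping ranges. The H4 differences lay between 0.59 and 2.29 and those of H3 between -1.67 and 3.81. Hist1h4i (1.90), Hist1h4c (1.76), Hist1h4h (1.68) and Hist4h4 (0.78) were called higher.

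**Figure D3:**
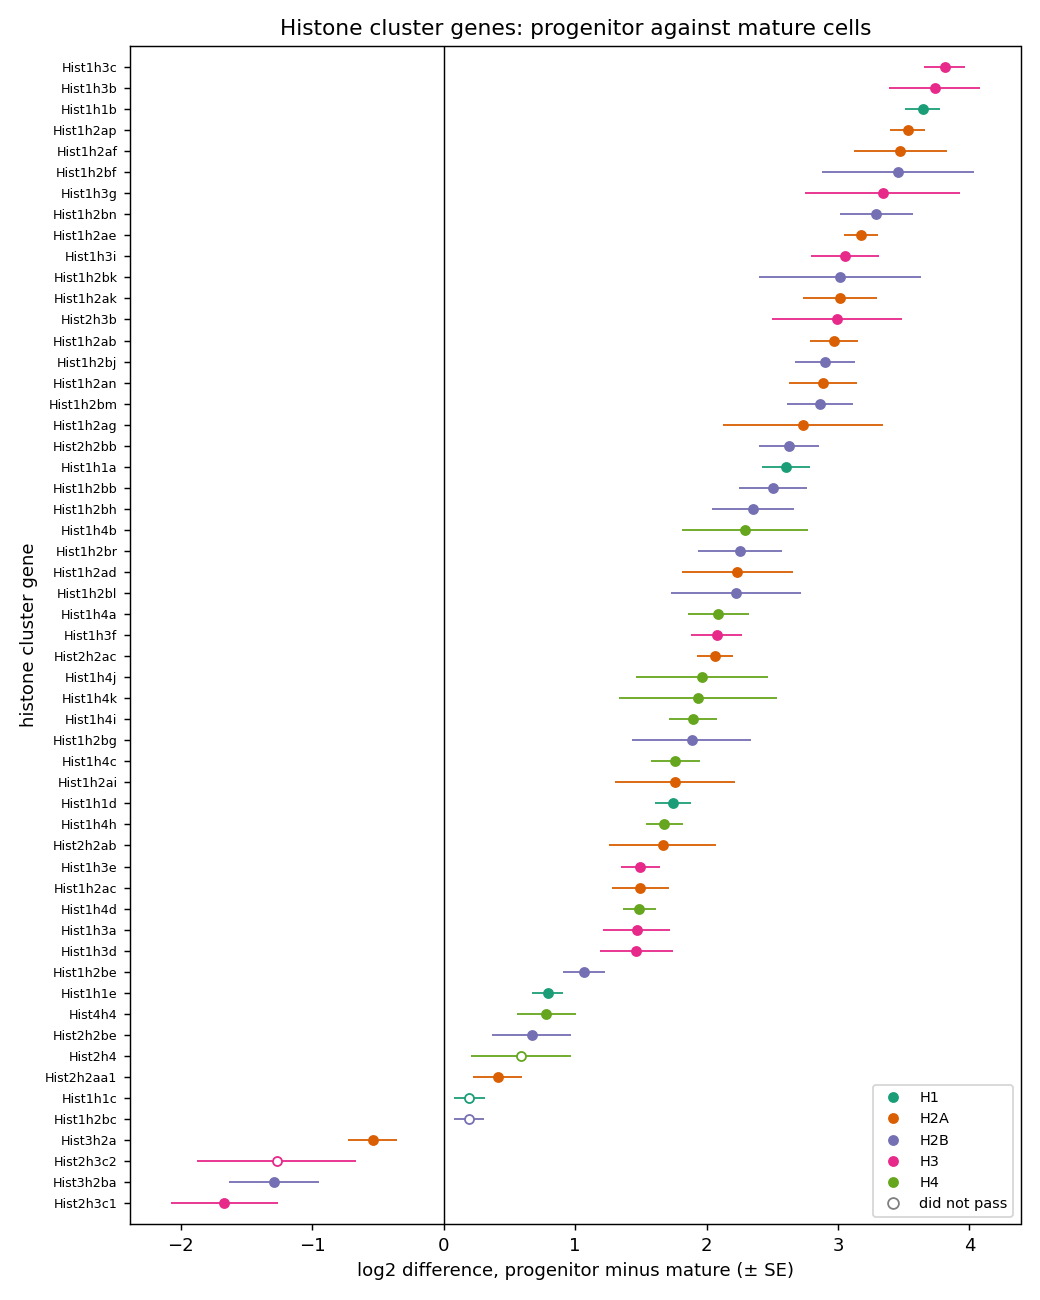
Log2 difference (x axis, progenitor minus mature, bars ± SE) of each of the 55 histone cluster genes tested (y axis), coloured by histone, with filled points for genes past the edgeR threshold. Of the points, 48 filled ones lie right of 0 and 3 left of it, from -1.67 for Hist2h3c1 to 3.81 for Hist1h3c.

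Members lower in progenitors were the H2A gene Hist3h2a, the H2B gene Hist3h2ba and the H3 gene Hist2h3c1. Hist3h2ba and Hist2h3c1 fell outside the naming rule and are named after their values were seen. Hist3h2a was at 12.9, 13.7, 11.6 and 8.98 CPM in progenitors and at 23.2, 17.5, 8.96 and 9.81 CPM in mature cells. It was higher in the mature cells in 3 of 4 libraries (-0.54 ± 0.19; edgeR, Benjamini-Hochberg adjusted p = 0.00778), with ranges that overlapped. Among mature cells it was at 37.5, 43.8, 14.6 and 15.9 CPM in EC, at 31.3, 26.2, 14.3 and 25.4 CPM in NON-EC and at 41.0, 37.1, 18.9 and 16.2 CPM in TUFT. GOBLET cells held 2.47, 9.91, 0 and 3.06 CPM and PANETH cells 6.10, 2.42, 5.53 and 2.17 CPM. Hist3h2ba was at 3.04, 4.4, 0 and 1.27 CPM in progenitors and at 8.04, 5.64, 15.4 and 2.69 CPM in mature cells (-1.29 ± 0.34). Hist2h3c1 rested on 148 UMIs. It was at 2.35, 1.71, 0 and 0.795 CPM in progenitors and 6.03, 3.88, 1.28 and 2.69 CPM in mature cells (-1.67 ± 0.41). Other genes hold 100% of the 50-base stretches of Hist2h3c1, so the gene behind its counts is uncertain. The upstream sequence of Hist3h2a printed above holds the octamer and CCAAT as that of Hist1h2bm does, and its 16 stem-loop letters equal those of Hist1h2ae and Hist1h1c.

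The median difference between progenitors and mature cells was smaller in members whose transcripts ran on past the stem-loop, but the ranges overlapped. Over all genes tested, 30.7% were called higher in progenitors and 33.5% lower. Among the 21 members ending within 100 bases of the letters, 16 of 16 tested were higher in progenitors. Their median log2 difference was 2.80, with a range of 0.41 to 3.81. Among the 22 that went on for more than 100 bases, 15 of 21 tested were higher and 3 lower, with a median of 1.49 and a range of -1.67 to 3.18. Members without the letters and with transcripts of at most 420 bases were higher in 9 of 9 tested, with a median of 2.89. Those without the letters and with longer transcripts were higher in 8 of 9 tested (median 2.26). These are counts over genes that passed the expression filter, and the groups were not tested against each other.

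To ask which cell cycle class carried the histone UMIs without using cell type names, cells were classed by UMIs of 57 S-phase and 57 G2/M genes that include no member, after thinning to 2000 UMIs. Cells with at least 3 UMIs of a list and more of that list than of the other (ties counted as S) formed the S and G2M classes, and cells with at most 1 UMI of each list formed the LOW class. The summed member level was 441, 353, 558 and 373 CPM in LOW cells, 1077, 713, 1318 and 1112 CPM in S cells and 1743, 883, 1504 and 2647 CPM in G2M cells. LOW was the lowest and G2M the highest class in 4 of 4 libraries. The classes mix cell types, since progenitors made up 418 of 739, 302 of 594, 2 of 29 and 873 of 1345 S cells and 701 of 1915, 308 of 1393, 16 of 102 and 1435 of 2679 G2M cells. Mature cells made up 483, 352, 31 and 463 of the G2M cells, so a class is a range of list UMIs and does not show that a cell was dividing. Across the 12 sums with library as a block, 28 of 46 members tested were higher in S than in LOW by edgeR with Benjamini-Hochberg adjustment, where 27.9% of all genes were, and 3 were lower, where 25% were. The median log2 difference was 1.09. Between G2M and LOW, 42 of 46 were higher, where 21.1% of all genes were, with a median of 1.85. The fit's scaling set the median gene near 0, whereas in plain CPM (log2 of CPM + 1) the median over all genes was 0.49 for S minus LOW and 0.43 for G2M minus LOW. In plain CPM, 26 of 46 members were higher in S than in LOW in 4 of 4 libraries, and so were 50.1% of all genes, so this count is near the background.

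Directly compared, no member was higher in S than in G2M cells, and 29 of 46 were lower. The corresponding shares of all genes were 7.05% higher and 6.88% lower. By unadjusted p under 0.05, 36 members and 28% of all genes differed, and DESeq2's Wald test called 0 higher and 13 lower. The median over members was -0.86, and 2 of 46 estimates were above 0. In plain CPM (log2 of CPM + 1) the median over members was -0.48. There 15 of 46 members were lower in S in 4 of 4 libraries and 0 were higher, against 13.8% and 19.2% of all genes. The S-phase list itself had 55 of 57 genes higher in S, and the G2/M list had 49 of 55 lower, as their use in the classes fixed. Leaving out WT replicate 1 or APC-KO replicate 2 left 13 and 10 members lower in S, and leaving out APC-KO replicate 1 left 33. Using only cells named ISC, SEC-PRO or ENTERO-PRO, which also dropped APC-KO replicate 1 for want of 5 cells per class, left 36. Between 28.4% and 39.1% of cells per library lay at 2 or 3 UMIs of a list, next to the threshold. The classes compared raw list sums, and over all cells the G2/M list held more than the S-phase list. It held 2746, 1851, 1225 and 4072 CPM against 1347, 1115, 494 and 1924. A cell rich in both lists could therefore be classed as G2M, so these counts do not show that members were lower in S phase itself.

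Hist1h1b gave 11.4, 6.82, 2.22 and 12.1 CPM in LOW cells, 138, 109, 114 and 121 CPM in S cells and 228, 109, 81.5 and 287 CPM in G2M cells. S exceeded LOW in every library (3.22 ± 0.20), while S and G2M overlapped, G2M being higher in WT replicate 1 and APC-KO replicate 2, level in WT replicate 2 and lower in APC-KO replicate 1 (S minus G2M -0.66 ± 0.15; edgeR, Benjamini-Hochberg adjusted p = 0.0061). Hist1h3c gave 3.78, 1.36, 3.71 and 4.56 CPM in LOW, 30.3, 10.4, 37.9 and 51.6 CPM in S and 62.9, 17.3, 30.4 and 166 CPM in G2M cells. Its S minus G2M difference was -1.29 ± 0.16, and G2M was higher in 3 of 4 libraries. Hist1h2bc gave 89.3, 101, 70.4 and 51.3 CPM in LOW, 100, 104.5, 101 and 51.5 CPM in S and 162, 197, 142 and 81.9 CPM in G2M cells. It was lower in S than in LOW in the fit (-0.37 ± 0.09), although its CPM was not lower in S in any library, the fit using TMM-scaled library sizes. Hist1h1c and Hist2h3c1 were the other members lower in S than in LOW in the fit (-0.45 and -1.0). The CPM of Hist1h1c was 46.1, 39.9, 54.9 and 32.4 in LOW and 42.8, 43.9, 82.0 and 35.1 in S cells, higher in S in 3 of 4 libraries. Hist1h1e did not pass the test (0.11 ± 0.17), although its CPM, 124, 108, 175 and 72.0 in LOW and 199, 161, 271 and 122 in S cells, was higher in S in 4 of 4. For these genes the direction or size therefore depends on the scaling.

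Within ISC and SEC-PRO cells, the members were highest in cells that carried both lists. A list was called high at 5 or more UMIs after thinning. The summed level in WT replicate 1 was 812 CPM in cells low for both lists, 563 CPM with the S list alone high, 3625 CPM with both high and 2113 CPM with the G2/M list alone high. WT replicate 2 gave 616, 441, 1897 and 1463 CPM in the same order, and APC-KO replicate 2 gave 602, 626, 4250 and 3580 CPM. In these 3 libraries the cells with the S list alone high were near or below the cells low for both, and the cells high for both lists were highest. In APC-KO replicate 1 these groups held 1, 1, 4 and 8 cells, of which the 8 with the G2/M list alone high gave 9130 CPM. Hist1h2bc ran differently, at 75.7, 83.2, 152 and 50.8 CPM in cells high for both lists and at 294, 419, 166 and 97.9 CPM in cells with the G2/M list alone high.

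**Figure D4:**
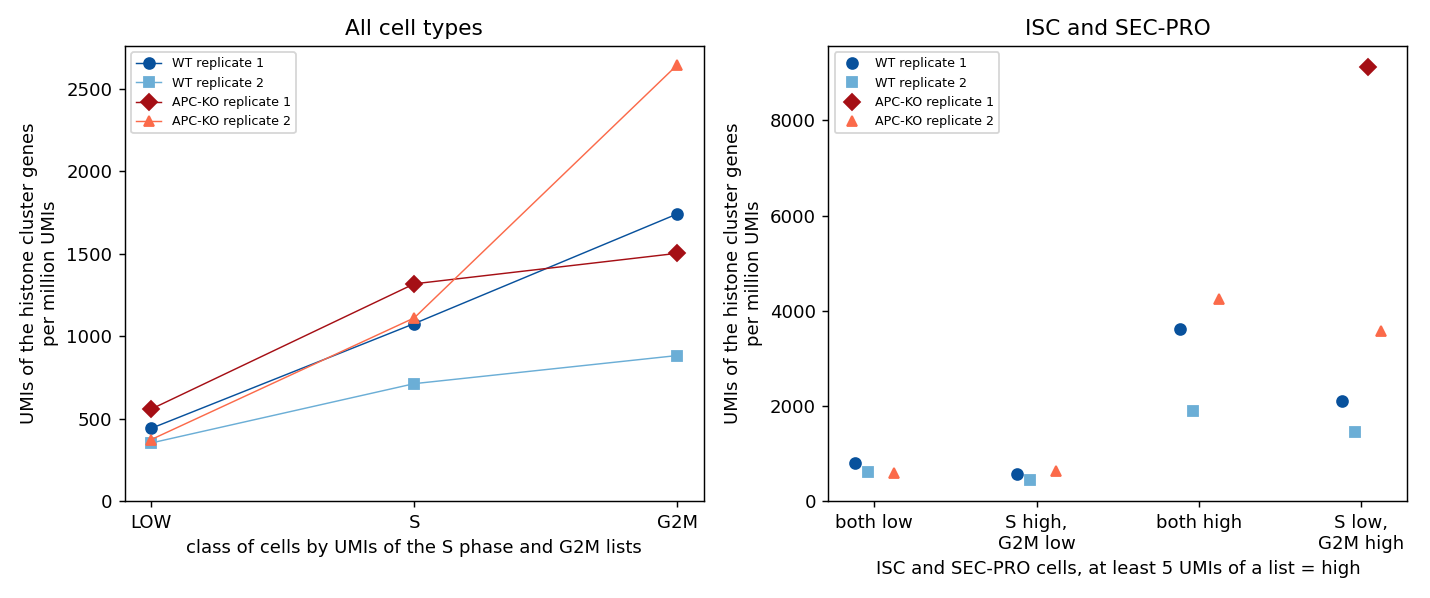
Summed UMIs of the histone cluster genes per 1000000 UMIs by library: left, cells of all types in the LOW, S and G2M classes; right, ISC and SEC-PRO cells by S and G2/M list level. G2M is the highest class in each library, and in WT replicate 1, WT replicate 2 and APC-KO replicate 2 cells high for both lists exceed cells with the S list alone high; groups under 5 cells are not drawn.

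Genes that make, process or deposit histones were read beside the members from lists chosen with earlier results of these data known. Slbp, which binds the stem-loop and is needed to process and translate these mRNAs, was at 101, 124, 75.3 and 111 CPM in progenitors and at 47.7, 29.6, 57.6 and 48.5 CPM in mature cells, without overlap (1.12 ± 0.12; edgeR, Benjamini-Hochberg adjusted p = 3.73e-16). Unlike the members, Slbp was higher in S than in G2M cells (1.16 ± 0.09). Of 24 tested genes for histone mRNA synthesis and processing, 14 were higher and 3 lower in progenitors, among them the cyclin E genes Ccne1 (3.46) and Ccne2 (2.16) and Lsm11 (1.14), part of the particle that cuts histone pre-mRNA. Of the 20 histone chaperones, 14 were higher and 2 lower, led by Asf1b (4.00), which hands H3 and H4 to the replication fork, and the chromatin assembly factor genes Chaf1a (2.71) and Chaf1b (2.34). Between S and G2M cells, 15 of the 20 chaperones were higher in S, with a median of 0.42. Slbp, both cyclin E genes, both Chaf1 genes and the chaperone gene Nasp are also in the S-phase list that defined the classes. The chaperone gene Hjurp is in the G2/M list. The place of these genes in the classes was fixed by the lists.

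Replacement histones, most of which are not made only in S phase, were mixed. Of 11 tested, 7 were higher and 2 lower in progenitors, with a median of 0.43. Cenpa, the H3 form of centromeres, was at 118, 98.2, 162 and 82.1 CPM in progenitors and at 7.31, 7.93, 7.68 and 9.43 CPM in mature cells (3.38 ± 0.15), and H2afx, the H2A form marked at DNA breaks, differed by 1.73 ± 0.12. The linker form H1fx (-2.59 ± 0.20) and the macroH2A gene H2afy2 (-2.81 ± 0.43) were lower in progenitors.

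Genotypes were compared on the sums of each library to ask whether Apc loss goes with a change in the histone genes. Apc encodes a scaffold of the complex that degrades beta-catenin, the effector of Wnt signalling. In progenitors the summed member level was 2309 and 1309 CPM in the WT libraries against 4066 and 2817 in the APC-KO libraries, which lay above both. By edgeR with Benjamini-Hochberg adjustment over 11092 genes, 5 of 53 members tested were higher in APC-KO and none lower, where 0.55% of all genes were called higher and 0.37% lower. By unadjusted p under 0.05, 39 of the 53 differed, as did 12.4% of all genes, and DESeq2's Wald test, which gave no adjusted p for 9247 of the 11092 genes, called 0. The median log2 difference was 1.24 over members and 0.01 over all genes, with 48 of 53 estimates above 0. Both APC-KO libraries lay above both WT libraries for 26 members, as for 12.6% of all genes, and below them for 2, as for 30.5% of all genes. The calls changed with single libraries left out, fits that had 1 library in a genotype. They ended without WT replicate 2 or APC-KO replicate 2. More members were called without WT replicate 1 or without APC-KO replicate 1, which has 29 progenitor cells. With RNA of the profile outside cells subtracted at an assumed 5% of each sum, 1 was called, with 24 of 10990 genes called higher.

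The 5 members called were Hist2h2aa1, Hist1h4c, Hist1h2bn, Hist1h2be and Hist1h3e. In APC-KO replicate 1 the progenitor sum held 172651 UMIs from 29 cells, so its values for these members rest on few UMIs. Hist2h2aa1 was at 10.9, 3.42, 17.4 and 38.0 CPM in progenitors, both APC-KO libraries above both WT (2.29 ± 0.38; edgeR, Benjamini-Hochberg adjusted p = 0.0133). RNA outside cells held more of it in each library, at 24.4, 5.19, 32.0 and 65.6 CPM, with the same order of libraries. Hist1h2be was at 22.3, 11.7, 40.5 and 45.8 CPM (1.44 ± 0.28) and Hist1h3e at 31.6, 15.4, 86.9 and 59.1 CPM (1.43 ± 0.29), also without overlap. Hist1h4c was at 18.4, 7.08, 5.79 and 52.0 CPM, the third value from 1 UMI and below both WT libraries (1.89 ± 0.38), and without APC-KO replicate 2 its direction turned (-1.15). Hist1h2bn was at 12.5, 7.33, 11.6 and 28.7 CPM (1.5 ± 0.30), with overlapping groups. Other genes hold 89.4% of the 50-base stretches of Hist2h2aa1, 86.4% of those of Hist1h2bn and 73.4% of those of Hist1h3e, so the gene behind these counts is uncertain.

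Estimates for the H1 genes lay nearer 0 than those for the core histone genes, a difference that was not tested. In progenitors the median log2 difference was 0.26 over 5 H1 genes, 1.29 over 14 H2A, 1.30 over 15 H2B, 1.31 over 9 H3 and 1.02 over 10 H4 genes. H1 genes summed to 873, 611, 950 and 796 CPM, H2A genes to 713, 224, 2062 and 835 CPM, H2B genes to 302, 288, 417 and 332 CPM, H3 genes to 204, 87.4, 411 and 355 CPM and H4 genes to 216, 98.9, 226 and 499 CPM. For each of these sums both APC-KO libraries were above WT replicate 2, the lowest library throughout, and for H1 WT replicate 1 lay between them. The members with the most UMIs in progenitors did not pass the test: Hist1h1b 0.22 ± 0.26, Hist1h1e 0.26 ± 0.27, Hist1h2ae 1.31 ± 0.48 and Hist1h2ap 2.12 ± 0.70. Hist1h2ap ran from 56.2 CPM in WT replicate 2 to 1199 CPM in APC-KO replicate 1, with WT replicate 1 (262) above APC-KO replicate 2 (233).

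The cell cycle lists did not show the same order of libraries in progenitors. The S-phase list summed to 3294, 3608, 1761 and 3248 CPM, with a median log2 difference of -0.09. Both APC-KO libraries lay below both WT libraries for 29 of its 57 genes, as for 30.5% of all genes. They lay above for 1, as for 12.6% of all genes. The G2/M list summed to 6596, 5109, 6568 and 7141 CPM (median 0.30), with 11 of 56 genes above both WT libraries and 3 below. The replacement histones summed to 5559, 6036, 5242 and 4512 CPM (median -0.12). Slbp differed by -0.03 ± 0.24. The mix of progenitor types differed too. ISC made up 575 of 1234, 228 of 680, 13 of 29 and 1245 of 2576 progenitor cells. ENTERO-PRO made up 116, 65, 11 and 468 of the same totals. These ENTERO-PRO cells held only 759, 816, 619 and 1323 CPM of the S-phase list. The part of this mix in the member and list levels was not tested.

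**Figure D5:**
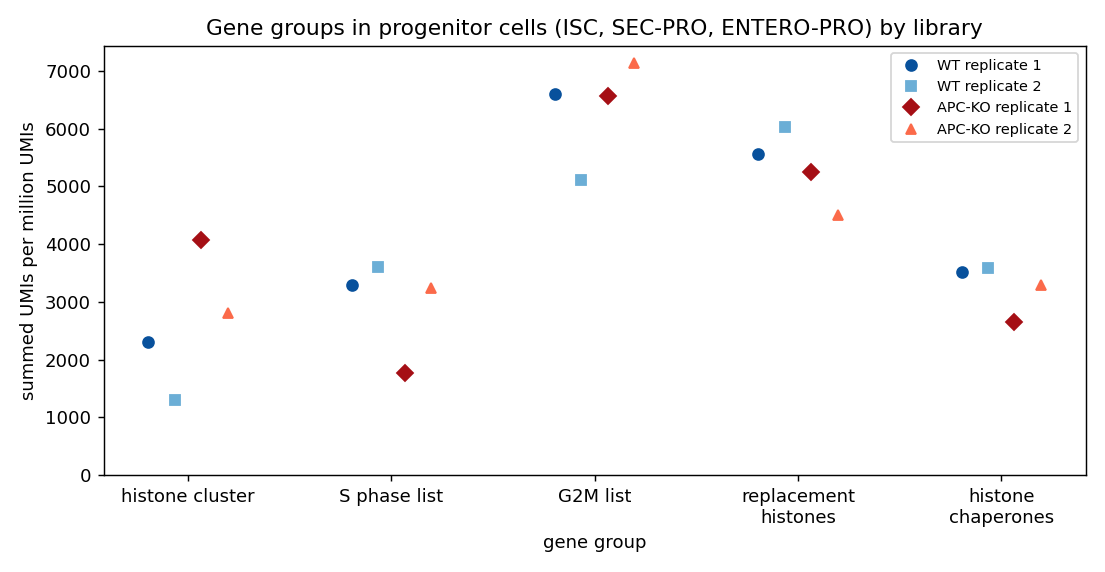
Summed UMIs per 1000000 UMIs (linear axis from 0) of the histone cluster genes and 4 other gene groups in progenitor cells, 1 point per library. Both APC-KO libraries (4066 and 2817) lie above both WT libraries (2309 and 1309) for the histone cluster genes, and below both (1761 and 3248 against 3294 and 3608) for the S-phase list.

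In the other sums no member passed the test for genotype. Over all cells edgeR called 0 of 56 members (0% of all genes in either direction), 11 differed by unadjusted p under 0.05 (3.71% of all genes), and DESeq2's Wald test called 1 higher. The summed level over all cells was 1085, 618, 903 and 1592 CPM, so the genotypes overlapped. Both APC-KO libraries were above both WT libraries in 12 members, where 8.44% of all genes were, and below in 3, where 26% were. In GOBLET-PRE cells edgeR and DESeq2 each called 0 of 27 (0.00974% of all genes were called higher by edgeR, 0% lower), 9 differed by unadjusted p (7.95% of all genes), and the median difference was 0.75, with 10 members above (11.2% of all genes) and 2 below (30.6%). In EC cells both tools called 0 of 18 (0% of all genes by edgeR), 9 differed by unadjusted p (8.39% of all genes), and the median was 0.29. There 6 members were above (14.6% of all genes) and 3 below (24.3%). The EC values of Hist3h2a, 37.5, 43.8, 14.6 and 15.9 CPM, put both APC-KO libraries below both WT libraries (-1.30), while Hist1h2ae, at 27.9, 10.7, 65.9 and 51.2 CPM, ran the other way (1.51). Calls of members and of other genes appeared when some single libraries were left out, fits that had 1 library in a genotype.

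Whether the progenitor to mature difference itself changed with genotype was tested as an interaction. By edgeR with Benjamini-Hochberg adjustment, Hist1h1b alone passed among 55 members, with a difference 0.98 ± 0.26 log2 units smaller in APC-KO, written as -0.98 (adjusted p = 0.0312), where 0.883% of all genes were called smaller and 0.335% larger. In the mature cells both APC-KO libraries (29.4 and 35.4 CPM) were above both WT libraries (20.1 and 10.0), while in progenitors they overlapped (359 and 323 against 359 and 255). In PANETH cells Hist1h1b was at 11.5, 3.86, 77.4 and 30.4 CPM, and with PANETH cells left out of the mature sum the difference was -0.65 and did not pass. Leaving out either WT library (-1.05 without the first, -0.79 without the second) or APC-KO replicate 2 (-0.63) also ended the call. DESeq2's Wald test called 0 members, 11 differed by unadjusted p under 0.05 with edgeR (8.51% of all genes), and the median over members was 0.12. Of the S-phase list, 11 of 57 genes had a smaller difference in APC-KO and none a larger one, with a median of -0.80. Tested within each genotype, 44 members were higher and 4 lower in WT progenitors (27.7% and 30.6% of all genes), and 49 were higher and 2 lower in APC-KO progenitors (22.7% and 24.5%).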

How the data were processed

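The deposited matrices hold raw UMI counts per gene and cell barcode, made by the authors with Cell Ranger 3.0.2, which uses STAR, on mm10, per the submitters' processing notes. Cell names, percent of mitochondrial UMIs (not used here) and other cell annotation came from the deposited cell tables, which also set the cells kept; no doublet caller was run. Counts were summed per library and cell type (cells are not replicates), and CPM are UMIs per 1000000 of a sum. edgeR 4.0.16 (R 4.3.3) was fitted over all genes passing filterByExpr, with TMM factors and the quasi-likelihood test, and p-values were adjusted by Benjamini-Hochberg with a threshold of 0.05; library was a block where both sums of a comparison came from each library (8 sums for progenitor against mature, 12 for the classes). DESeq2 1.42.0 was an alternative. Estimates are log2 differences with SE. The fits were tested on simulated data.

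The members and gene lists were chosen with earlier results of these data known. Members were named if they were among the 20 with the most UMIs or among up to 10 more past a threshold in any fit, by UMIs; list genes were named if past a threshold, at most 4 per list and fit, and Slbp always. Percentages of all genes beside a count are the share of all genes tested that met the same rule. The free RNA profile came from barcodes with 1 to 50 UMIs. Positions, transcripts and stem-loop windows came from GENCODE vM21 (31011 of 31053 gene IDs matched), and promoters from RefSeq. Precision is limited by 2 libraries per genotype and by 356 cells in APC-KO replicate 1. Values of replicates with the same number did not deviate together (correlations of -0.25 for all cells, 0.02 for progenitors, -0.01 for GOBLET-PRE and -0.05 for EC), so samples were not paired. Alternatives covered normalisation, filter, tool, each library left out, free RNA, abundant genes, thinning, cell type grouping and class thresholds.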

Additional observations from a re-analysis of the deposited data

Results flagged for a closer look

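The progenitor to mature log2 difference of Hist1h1b was smaller in APC-KO than in WT by a test of the difference itself (-0.98; edgeR, Benjamini-Hochberg adjusted p = 0.0312). Over the 14 other settings tried, the value ran from -1.64 to -0.52 and the adjusted p from 6.97e-06 to 1, and it missed the threshold in 10 of them. Hist1h2ap was at 725 CPM in barcodes with 1 to 50 UMIs of APC-KO replicate 1, RNA outside cells that entered the comparisons only as a profile subtracted in an alternative, against 130, 46.7 and 111 CPM in the other libraries. With that profile subtracted at an assumed 5% of each sum, the progenitor difference of Hist1h2ap was 4.11 instead of 3.53, and the Hist1h1b value was -1.64.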

How the results depend on the processing

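Between progenitor and mature cells, 27 to 51 members were higher with 1 library left out. For genotype over all cells, 1 member was higher with DESeq2's Wald test and 1 without a count filter, and leaving out single libraries gave 0 to 6 higher and 0 to 1 lower. In progenitors the 5 members higher became 0 with DESeq2, 28 without a filter, 1 with free RNA subtracted (an assumed 5% of each sum), 19 after thinning, and 0 to 15 with single libraries left out (0 to 1 lower). GOBLET-PRE gave 12 without a filter and 0 to 6 with libraries left out; EC gave 6 higher and 1 lower without a filter, and 0 to 4 higher and 0 to 3 lower with libraries left out. A replicate block gave 0 over all cells, 17 in progenitors (4 of the 5 among them), 6 in GOBLET-PRE and 0 in EC; same-numbered samples share only a number. Crossing the numbers over all cells, added after seeing the data, gave 0 higher and 0 lower. The interaction gave 1 higher with DESeq2 size factors, with free RNA subtracted or with abundant genes left out, 2 with GP added or ENTERO-PRO left out (the latter added after seeing the data), and 0 to 4 with libraries left out. Its 1 member lower became 4 with free RNA subtracted, 0 with DESeq2's Wald test, without a filter, with ISC alone, with GP added, or without PANETH or ENTERO-PRO, and 0 to 4 with libraries left out. The 3 lower in S than LOW became 1 in progenitors alone, a fit that also lacks APC-KO replicate 1, and 1 to 3 with libraries left out, and the 29 lower in S than G2M became 13 with DESeq2 and 10 to 33 with libraries left out. Counting thinned cells with a member UMI, the progenitor to mature ratio was 1.11. Reversed values were those of Hist1h4c between genotypes (-1.15 to 2.60 with libraries left out), the progenitor difference of Hist2h2aa1 (-0.039 with DESeq2; -1.0 to 0.59), Hist1h4a (-2.31 to 2.19) and Hist1h2an (-1.30 to 2.92), and Krt18 between S and LOW (0.062 in progenitors alone). The cause was not tested. With 29 progenitor cells in APC-KO replicate 1, its values for single members rest on few UMIs.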
